A study of Rattus norvegicus with 40 samples.

Results

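The liver of rats given 8 weekly injections of N-nitrosodiethylamine (DEN) was compared with that of same-age rats given no DEN. The comparison held 8 of the 40 RNA-seq libraries of the series, chosen by their labels alone: 4 labelled DEN, collection week 08 and NT (non-tumoral tissue), from rats F09, F10, H17 and H18, and 4 labelled no DEN (NOD) at the same week, from rats H05, H06, H07 and H08. All 8 rats were male Fischer 344 animals. Treatment began at 7 weeks of age, with 50 mg/kg of DEN in olive oil injected into the peritoneum once a week, and the control rats are described only as treated with no DEN, so that an injection of oil alone is not stated. The remaining libraries came from liver collected after 14 weekly injections and after 14 weekly injections followed by 6 weeks without DEN, with same-age no DEN rats at each time and with nodules taken separately from NT tissue. The week-8 libraries are all NT. What the letters F and H in the rat names mark is not stated in the sources used here, and since the no DEN rats all carry the letter H, the values of the H rats alone are given beside the group counts that depend on them. Each library is a different rat, so the p-values below measure the spread between rats.

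DEN is a liver carcinogen that has to be activated by the body. Cyp2e1 and related cytochrome P450 enzymes, which are richest in the hepatocytes around the central vein, convert it to an ethylating agent that damages DNA and kills part of these cells, and the survivors divide to replace them. Damaged DNA activates p53, ethylated guanine is repaired by the Mgmt protein, and repeated rounds of death and regrowth give scarring and small clones of altered hepatocytes that are recognised by the placental glutathione S-transferase encoded by Gstp1. These NT samples are whole tissue, so that a fall in the share of a cell type and less RNA per cell cannot be told apart, and the same holds for rises.

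Between 27747019 and 37166768 read pairs per library were counted in genes. Albumin took 16.3 to 18.8% of the counts in each of the 8 libraries, the level of a liver sample. Log2 expression correlated at 0.979 to 0.992 within the groups and at 0.953 to 0.976 between them, as descriptions over 10812 genes. More genes had counts in the DEN rats (12698 to 12822) than in the no DEN rats (12221 to 12358). The trimmed mean of M-values (TMM) factors were also higher, at 1.02 to 1.15 against 0.916 to 0.944. How the counts were spread over genes was not tested.

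Of 10812 genes tested, 788 (7.29%) were raised and 67 (0.62%) were lowered after 8 weeks of DEN, 855 (7.91%) in all, where a call needed at least a 2-fold difference and an adjusted p of at most 0.01 (edgeR quasi-likelihood test, Benjamini-Hochberg adjustment). The median log2 fold change of all tested genes was -0.0078 (0.19 with library totals alone and no scaling factor, where 96.6% of the calls were raised against 92.2% here). At the same adjusted p with no minimum fold, 1352 genes (12.5%) were raised and 719 (6.65%) were lowered, so that many of the lower genes differed by less than 2-fold. Changes of at least 4-fold were found for 196 raised and 13 lowered genes, and of at least 8-fold for 46 and 4. The groups did not overlap for 2015 genes (18.6%) with all DEN values higher and for 1572 (14.5%) with all DEN values lower. Levels below are in CPM (counts scaled to a common library total) after TMM scaling, and fold changes are log2 values of DEN against no DEN with their standard error (SE). With the H rats of the DEN group alone, 602 genes were raised and 46 lowered, and with the F rats alone 817 and 181. Leaving out H17 gave 129 lowered genes.

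**Figure D1:**
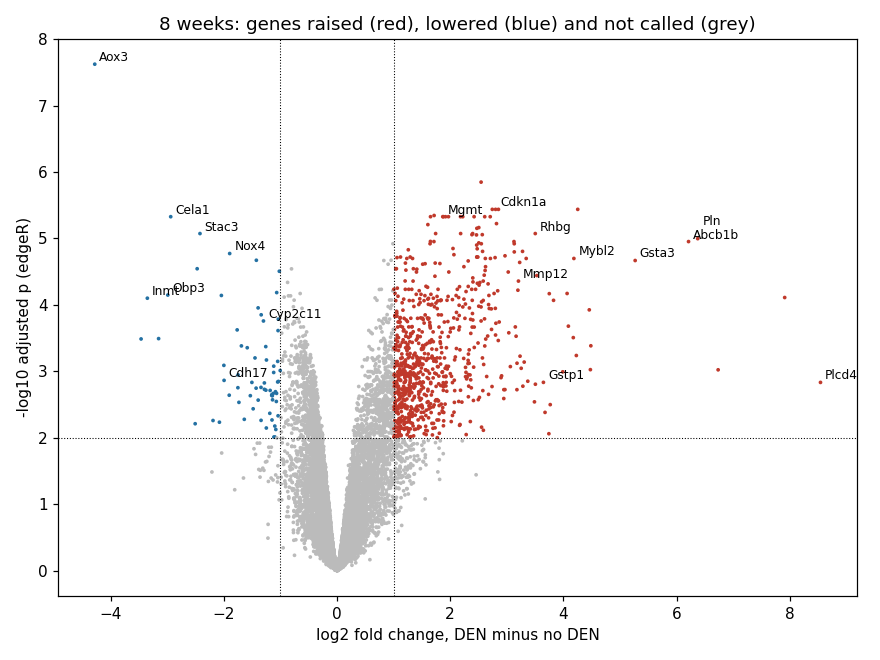
Log2 fold change of DEN against no DEN liver at 8 weeks (horizontal axis) against -log10 of the edgeR adjusted p (vertical axis), 1 point for each of the 10812 genes tested, with the 788 raised and 67 lowered genes coloured. Raised genes reach further from 0 than lowered genes, with Abcb1b at 6.21 and Aox3 at -4.28 among the farthest.

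Among the 12 raised genes with the largest changes was Abcb1b, which encodes a P-glycoprotein that pumps drugs and lipids out of the cell. It was counted at 1.08, 1.6, 1.72 and 3.15 CPM in the no DEN rats and at 93.6, 102, 173 and 194 CPM in the DEN rats, a 74.2-fold rise (log2 fold change 6.21 ± 0.38, edgeR adjusted p = 1.1e-05). All 4 DEN rats were far above all controls. The H rats were higher than the F rats, a difference that did not pass the test. Its close copy Abcb1a differed much less, with a log2 fold change of 0.77 ± 0.18 that did not reach 2-fold, and reads that fit both copies were not counted. The phospholipase C gene Plcd4 had no read in the no DEN rats and 0.727 to 2.28 CPM in the DEN rats, at least 13.7-fold higher when each control library is set at 3 counts. Pln, which encodes the calcium-pump regulator phospholamban, was at 0, 0, 0.0374 and 0.106 CPM without DEN and at 2.4 to 3.94 CPM with DEN, at least 30.6-fold higher by the same rule. Lama5, a laminin chain of basement membranes, went from 1.45, 1.6, 1.64 and 1.81 CPM to 22.7, 24.9, 35 and 41.8 CPM (4.25 ± 0.22, edgeR adjusted p = 3.6e-06). Mybl2, a transcription factor of dividing cells, rose by 4.19 ± 0.33 (edgeR adjusted p = 2e-05). Others were Gsta3, Cyp2c24 and Cdh13, described with their families below, and Svop, Ddit4l2 (at least 10.2-fold higher by the same rule) and Hapln3, each under 3 CPM in every DEN rat. Among the 7 tested genes of red blood cells, Ahsp and Epb42 were raised (28.6%, against 7.29% of all genes), the latter not with the H rats alone, and the summed level of these genes overlapped between the groups (202 to 423 CPM with DEN and 161 to 278 CPM without).

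The largest fall was that of Aox3, an aldehyde oxidase of the liver that also acts on drugs. Its values were 108, 113, 134 and 135 CPM in the no DEN rats and 5.2, 6.2, 6.38 and 7.38 CPM in the DEN rats, a log2 fold change of -4.28 ± 0.13 (edgeR adjusted p = 2.4e-08). The rats of each group were close together and the groups were far apart. Inmt, a methyltransferase of small amines, had 47.5, 64.9, 66.5 and 86.9 CPM without DEN and 3.28, 6.15, 6.94 and 9.57 CPM with it. Stac3, known from the calcium release machinery of muscle, was expressed in these livers at 251, 339, 373 and 401 CPM without DEN and at 54.6, 60.2, 60.6 and 79 CPM with DEN (-2.42 ± 0.16, edgeR adjusted p = 8.4e-06). Neither gene had a DEN rat within the range of the controls. Cela1, an elastase known from the pancreas and also transcribed elsewhere, was at 5.24 to 8.26 CPM without DEN and 0.731 to 0.922 CPM with it. The leukotriene C4 synthase gene Ltc4s (-2.47 ± 0.22), the insulin receptor substrate gene Irs3 (-2.001 ± 0.28), the liver-intestine cadherin gene Cdh17 (-1.997 ± 0.31) and the NADPH oxidase gene Nox4 (-1.90 ± 0.15) completed this set with Obp3, Nkx1-2, Tenm2 and Lppr1. The call for Lppr1 was lost without H05, H07, F10 or H18, and with the H rats of the DEN group alone, and that for Irs3 with the H rats alone and with the F rats alone.

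Part of the p53 target genes was raised. Of 33 tested members, 10 were raised (30.3%, against 7.29% of all genes) and none was lowered. At the adjusted p alone, 15 were higher and 2 lower, where 12.5% and 6.65% of all genes were. The median log2 fold change of the list was 0.64, against -0.0078 for all genes. Cdkn1a, which encodes the p21 inhibitor of cyclin-dependent kinases, had 24.3, 25.6, 33.2 and 35.2 CPM in the no DEN rats and 178, 184, 224 and 240.1 CPM in the DEN rats (2.80 ± 0.15, edgeR adjusted p = 3.6e-06). The lowest DEN rat was far above the highest control. Mdm2, the ubiquitin ligase that limits p53, was at 13.4, 14.7, 16.3 and 19.5 CPM without DEN and at 34.3, 39.4, 43.8 and 44.8 CPM with it (1.34 ± 0.13). Ccng1, cyclin G1, was at 27.2 to 36.8 CPM against 63.2 to 104 CPM (1.42 ± 0.16). The death receptor gene Fas (1.51 ± 0.13) and the antiproliferative gene Btg2 (1.27 ± 0.12) were raised in every rat as well. Bax, which encodes a protein that opens mitochondria in cell death, was close to the fold threshold at 1.02 ± 0.10 (0.965 to 1.11 when single rats were left out), and its call was lost without F10, H07 or H18 and in the H rats alone. Phlda3, an inhibitor of Akt signalling, did not reach 2-fold (0.96 ± 0.10), although its 4 DEN rats (55 to 67.8 CPM) were above its 4 controls (27.2 to 34.9 CPM). The largest members were Ckap2 (3.23 ± 0.27), whose protein works in the mitotic spindle, and the low-count phosphatase gene Ptprv (3.18 ± 0.57).

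Mgmt, which removes alkyl groups from guanine, was at 22.5, 23.3, 23.9 and 30.8 CPM in the no DEN rats and 83.9, 84.7, 96.6 and 102 CPM in the DEN rats (1.87 ± 0.11, edgeR adjusted p = 4.7e-06). The groups did not overlap, and the spread within the DEN group was small. It was 1 of 2 raised members among 28 tested genes of direct, base excision and mismatch repair, a share of 7.14% that is near the 7.29% of all genes, and the median of the list was 0.07. The other was the nuclease gene Exo1 (2.97 ± 0.53), at 0 to 0.145 CPM without DEN and 0.531 to 1.38 CPM with DEN. Homologous recombination and Fanconi genes, which repair broken and crosslinked DNA and are mostly expressed in dividing cells, moved more: 9 of 26 (34.6%) were raised and none lowered, with a median of 0.58. Among them was the Brca1 partner Bard1 (3.31), while Brca1 itself was higher by 0.80 ± 0.17 and was not called. The cell cycle genes rose in the same rats, and the share of either group that belongs to dividing cells was not tested.

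**Figure D2:**
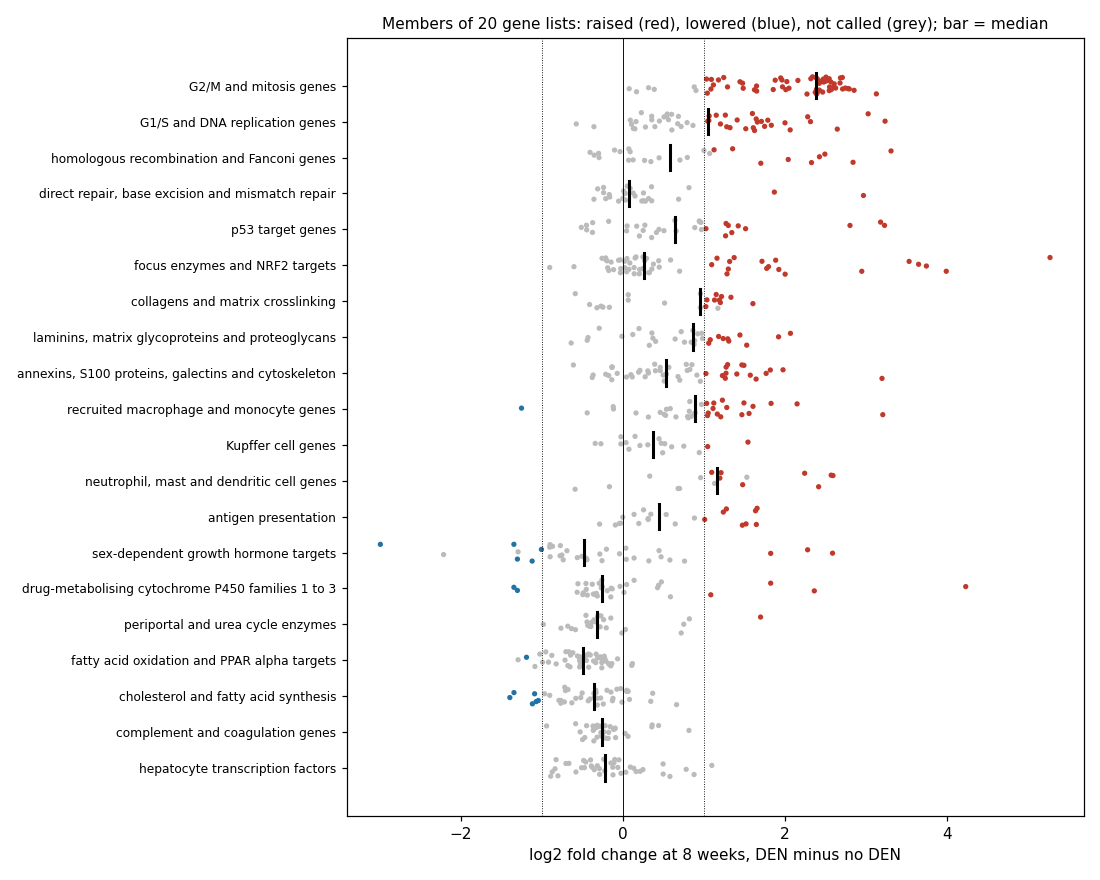
Log2 fold change of DEN against no DEN at 8 weeks (horizontal axis) for each tested member of 20 gene lists (rows), with raised members in red, lowered members in blue, members not called in grey and a bar at the median of the list. The mitosis genes have a median of 2.38, while most lists of hepatocyte functions have medians below 0.

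The cell cycle genes held the densest set of changes in these livers. In the list of G2 and mitosis genes, 61 of 67 tested members were raised (against 7.29% of all genes) and none was lowered, with a median log2 fold change of 2.38, and 65 of the 67 had every DEN rat above every no DEN rat (against 18.6% of all genes). The 6 that were not called were Cdc25b, Bub3, Cit, Cks1b, Tubb4b and Lmnb1, all with values above 0. They are named here after their values were seen. Cdk1, the kinase that drives entry into mitosis, was at 1.5, 1.84, 2.06 and 2.46 CPM without DEN and 12.1, 12.6, 13.2 and 14.8 CPM with DEN (2.74 ± 0.15, edgeR adjusted p = 3.6e-06). Mki67, whose protein Ki-67 marks cycling cells, was at 3.69, 4.07, 5.06 and 7.92 CPM without DEN and 24, 24.8, 24.9 and 30.0 CPM with DEN (2.32 ± 0.21). All DEN rats were well above the controls in both genes, and the highest DEN rat for Mki67 stood apart from the other 3. The ubiquitin-conjugating enzyme gene Ube2c (2.85 ± 0.16), cyclin B1 (Ccnb1, 2.40 ± 0.17), the mitotic kinase gene Pbk (3.13) and the topoisomerase gene Top2a (2.51) were raised as well. The replication genes, which act earlier in the cycle, gave 26 raised (52.0%) and no lowered genes among 50 tested, with a median of 1.05. Rrm2, the ribonucleotide reductase subunit made in S phase, rose from 0.972 to 2.32 CPM in the controls to 10.8 to 18.9 CPM in the DEN rats (3.03 ± 0.26). The helicase subunit Mcm6 rose by 1.60 ± 0.18, and Pcna, the sliding clamp that repair also uses, was higher by 0.60 ± 0.08 and was not called.

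The D cyclins and the kinase inhibitors held fewer calls. Ccnd1, cyclin D1, which starts the cycle, was at 53.7, 53.7, 58.6 and 64.8 CPM without DEN and at 61.3, 79.7, 86.8 and 108 CPM with DEN, and the groups overlapped (0.54 ± 0.15, edgeR adjusted p = 0.018, not called). In the list of D cyclins, their kinases and the inhibitors of those kinases, 4 of 16 were raised (25%, against 7.29% of all genes): Cdkn1a, the phosphatase gene Cdkn3 (2.58), and the inhibitor genes Cdkn1c (1.79 ± 0.17) and Cdkn2c (1.77). Every DEN rat had more Cdkn1c (2.66 to 3.49 CPM) than every control (0.759 to 0.99 CPM).

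The genes of mitosis are known to share promoter elements, so their promoters are shown here. A CHR element (cell cycle genes homology region, searched as TTTGAA on both strands in the 250 bases before the start of the gene) was found in 10.5% of the 8814 tested genes with a promoter in the RefSeq table (build GRCr8) and in 29 of 56 (51.8%) of the G2 and mitosis genes. The CCAAT box (searched as CCAAT, both strands) was found in 36.0% and in 40 of 56 (71.4%). An E2F site (searched as TTTGGCGC, both strands) was found in 0.783% of all and in 8 of 43 (18.6%) of the replication genes. The CHR and the E2F site begin with the same letters, but a match to either is not a match to the other. A match describes letters and not a bound factor. The counts were mapped by the authors to the build rn6, and only the sequences come from GRCr8. The 100 bases before the start of Cdk1 (chr20:19265193-19265292, plus strand) and Top2a (chr10:84473094-84473193, minus strand) are given 5′ to 3′ with the CHR and CCAAT matches in capitals, in Cdk1 with the CHR on the printed strand and in Top2a on the other strand, and with CCAAT read as ATTGG in both.
Cdk1: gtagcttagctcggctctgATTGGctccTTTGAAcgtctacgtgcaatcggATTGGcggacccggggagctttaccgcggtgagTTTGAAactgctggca
Top2a: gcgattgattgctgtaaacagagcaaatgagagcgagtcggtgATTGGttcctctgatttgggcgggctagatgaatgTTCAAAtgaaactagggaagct

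**Figure D3:**
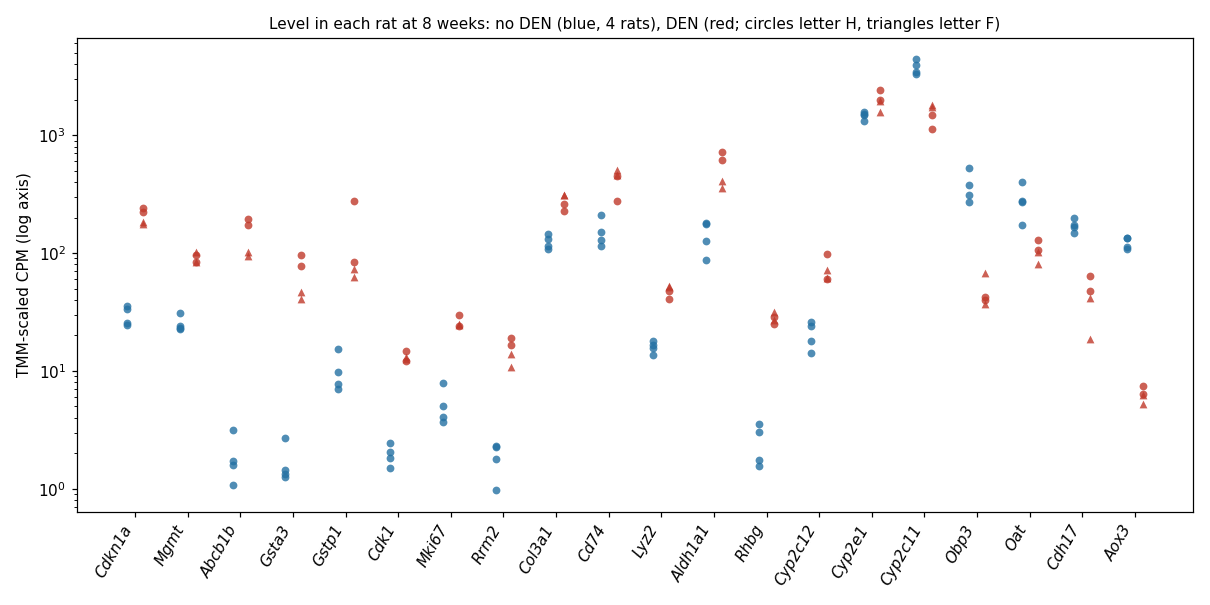
Level in each rat (CPM after TMM scaling, log axis) for 20 genes described in the text, 1 point a rat at 8 weeks. No DEN rats are blue and DEN rats red, with circles for the letter H and triangles for the letter F. Cdkn1a, Mgmt, Cdk1 and Gstp1 lie higher in all 4 DEN rats, Aox3 lies lower, and Gstp1 has 1 DEN rat at 278 CPM above the others.

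Enzymes that mark altered hepatocyte foci, and targets of the antioxidant factor NRF2, were raised in part. Of 56 tested members, 18 were raised (32.1%, against 7.29% of all genes) and none lowered, and the median was 0.26. Gstp1, the classical marker of such foci in rat liver, was at 7.05, 7.71, 9.83 and 15.2 CPM without DEN and 63.1, 73.4, 84.8 and 278 CPM with DEN (3.65 ± 0.55, edgeR adjusted p = 0.0015). Rat H18 was far above the other DEN rats, and without it the change was 2.89 (edgeR adjusted p = 8.8e-05). Gsta3, a glutathione S-transferase of the alpha class, went from 1.27, 1.35, 1.45 and 2.7 CPM to 40.5, 46.6, 77.3 and 96.2 CPM (5.27 ± 0.37). Here, too, the F rats were below the H rats without passing the test of that difference. The aldo-keto reductase gene Akr7a3, which detoxifies aflatoxin aldehydes, was at 28.5 to 61.1 CPM without DEN and 131 to 292 CPM with DEN (2.002 ± 0.30). Gpx2, a glutathione peroxidase, rose by 3.53 ± 0.31, Aldh3a1, an aldehyde dehydrogenase known from liver tumours, by 3.99 ± 0.60 (not called in the fit of 24 libraries described below), and the export pump gene Abcc3 by 1.92 ± 0.30. The quinone reductase gene Nqo1 rose by 1.72 ± 0.32, a call lost without H07 or H17. Ggt1, the gamma-glutamyltransferase used with Gstp1 to stain foci, was raised at a low level, 0.449 to 0.724 CPM without DEN and 1.2 to 1.69 CPM with it (1.37 ± 0.22), and was not called in the fit of 24 libraries either. The cystine importer gene Slc7a11 (3.74 ± 0.85, edgeR adjusted p = 0.0087) lost its call when any of F10, H05, H06, H07, H08, H17 or H18 was left out. Other members, such as Gclc, the rate-limiting enzyme of glutathione synthesis (0.45 ± 0.18), Txnrd1, thioredoxin reductase (0.27 ± 0.14), and Hmox1, heme oxygenase (0.07 ± 0.13), were not called and overlapped between the groups.

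Among the raised members of this list, 3 of 16 with a promoter (18.8%) and among its tested members 8 of 46 (17.4%) held the core of the antioxidant response element (searched as TGACNNNGC on both strands in 250 bases), against 12.7% of all promoters. The promoters of Gstp1 (chr1:210769706-210769805, minus strand) and Gsta3 (chr9:31154889-31154988, plus strand) are shown because they are 2 of the 3 promoters of raised members that hold the core. Aldh3a1 and Slc7a11 had larger changes than Gstp1 and are not shown. The capitals mark the core, and the letters come from the RefSeq table of GRCr8.
Gstp1: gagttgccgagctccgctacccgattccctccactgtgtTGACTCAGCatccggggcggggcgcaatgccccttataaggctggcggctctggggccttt
Gsta3: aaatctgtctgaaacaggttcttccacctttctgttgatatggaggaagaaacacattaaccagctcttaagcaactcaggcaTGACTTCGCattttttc

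Fetal and tumour-marker genes were mixed. Of 22 tested, 7 were raised (31.8%, against 7.29% of all genes), with a median of 0.81. The surface glycoprotein gene Thy1 (2.32), the hyaluronan receptor gene Cd44 (1.61 ± 0.19), the imprinted RNA H19 (1.86 ± 0.38) and the glypican gene Gpc3 (2.04 ± 0.43) were raised. The calls of Gpc3 and H19 were lost without F09, F10, H05, H06, H07 or H18 and without H05, H06 or H07, respectively. Afp, the alpha-fetoprotein gene, was at 26.5, 27.5, 29.1 and 30.5 CPM without DEN and 29.9, 30.6, 34.4 and 35 CPM with DEN, and the groups overlapped (0.19 ± 0.08, edgeR adjusted p = 0.087). The bile duct genes Krt19 (0.88 ± 0.24) and Sox9 (0.82 ± 0.31) also overlapped between the groups and were not called. Of 16 tested cholangiocyte and ductular markers, Cldn4 and Muc1 were raised (12.5%, near the 7.29% of all genes), the former with its call lost without H07 or H18. The median of the list was 0.72. At the adjusted p alone, 6 members were higher and 1 lower, against 12.5% and 6.65% of all genes. Every DEN rat was above every control for 9 of the 16 (18.6% of all genes) and below for 2 (14.5% of all genes). The summed level of the list was 228 to 259 CPM with DEN and 247 to 277 CPM without.

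Most lists of hepatocyte functions had medians below 0. The liver of male rats expresses a set of genes under the control of pulsed growth hormone. Of 36 tested genes of this sex-dependent set, 5 were lowered (13.9%, against 0.62% of all genes) and 3 raised (8.33%, near the 7.29% of all genes), and the median was -0.48. Without F09, 3 were lowered, and with the H rats alone 2 were. The summed level of the list was 12007 to 14115 CPM with DEN and 21397 to 23131 CPM without. Cyp2c11, the main male-specific P450, was at 3313, 3464, 3917 and 4399 CPM without DEN and 1123, 1473, 1719 and 1811 CPM with DEN (-1.30 ± 0.15, edgeR adjusted p = 0.00017). Cyp2c12, its female counterpart, was at 14.1, 18.1, 24.1 and 25.8 CPM without DEN and 59.8, 61.5, 71.3 and 98.1 CPM with DEN (1.82 ± 0.22, edgeR adjusted p = 0.00031). The groups did not overlap for either gene, in opposite directions. The carrier protein gene Obp3 was at 269, 312, 379.9 and 529 CPM without DEN and 36.7, 40.1, 42.4 and 68 CPM with it (-2.99 ± 0.26). The related LOC298116 and LOC259244 were lowered too, with log2 fold changes of -1.12 and -1.005. Members did not all follow the sex in which they are higher: Cyp2c7, a P450 higher in female rats, was lowered as well (-1.34 ± 0.23), and the male P450 genes Cyp3a2 (0.14) and Cyp2c13 (-0.26) were not called. The call for LOC259244 was lost without F09, F10 or H08, and that for Cyp2c7 with the H rats alone and with the F rats alone. LOC259244 also lost its call with the filter of 1 CPM in 4 libraries, with upper-quartile scaling and with library totals alone. A1bg, also higher in females, was raised by 2.59 ± 0.58, with the call lost without H05, H06, H07, H08, H17 or H18. The receptor gene Ghr (-0.90 ± 0.10) and its target Igf1 (-0.51 ± 0.09) were lower in every DEN rat than in every control, without reaching 2-fold. Igfbp2, which binds the growth factor, was raised by 2.28 ± 0.35. Bcl6, a repressor in male liver, overlapped between the groups, at 10.8 to 89 CPM without DEN and 5.41 to 16.4 CPM with it. Copies of the Cyp2c, glutathione S-transferase alpha and urinary protein genes are alike enough that their split of reads is uncertain.

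The drug-metabolising P450 families 1 to 3 gave 4 raised and 2 lowered genes among 35 tested, with a median of -0.26. The raised share of 11.4% was near the 7.29% of all genes, and the lowered share was 5.71% against 0.62%. Cyp2e1, which activates DEN itself, was at 1315, 1472, 1518 and 1587 CPM without DEN and 1575, 1957, 1976 and 2418 CPM with DEN. The groups overlapped by 1 rat, and the change of 0.43 ± 0.12 was not called (edgeR adjusted p = 0.02). Cyp1a1, the dioxin-inducible enzyme, was raised by 2.36 ± 0.28 from a low level of 0.336 to 1.23 CPM, while Cyp1a2 was lower by 0.55 on the log2 scale and was not called. The largest rise of the family was that of Cyp2c24 (4.23 ± 0.58), at 0.0723 to 0.229 CPM without DEN and 1.29 to 6.13 CPM with DEN. Of 32 conjugation enzymes, Ugt1a6 (1.66), Sult2a6 (1.34) and Ugt1a7c (1.30) were raised, and Inmt and Sult2a1 (-1.25) were lowered, shares of 9.38% raised and 6.25% lowered. The call for Ugt1a7c was lost without F09, H06, H07, H08 or H18.

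Of 26 tested pericentral and Wnt target genes, 4 were raised (15.4%, against 7.29% of all genes) and 1 was lowered (3.85%, against 0.62%), with a median of -0.15. The ammonium transporter gene Rhbg was at 1.57, 1.77, 3.04 and 3.58 CPM without DEN and 25.1, 27.1, 28.8 and 31.8 CPM with DEN (3.50 ± 0.22, edgeR adjusted p = 8.4e-06). Aldh1a1, a retinal dehydrogenase, went from 87.7, 126, 177 and 179 CPM to 359, 407, 617 and 718 CPM (1.88 ± 0.28). Neither gene had overlapping groups. The Wnt targets Sp5 (1.84 ± 0.25) and Nkd1 (1.21) were raised, and the general Wnt target Axin2 was not (0.34 ± 0.18, groups overlapping). Glul, the glutamine synthetase of the last hepatocytes before the central vein, was at 331, 332, 332 and 359.9 CPM without DEN and 296, 300.4, 305 and 323 CPM with DEN, a small difference that was not called (-0.15 ± 0.07, edgeR adjusted p = 0.12). Oat, the ornithine aminotransferase of the same cells, was lowered (-1.43 ± 0.24). Among 26 periportal and urea cycle enzymes, Aldh1b1 was raised (1.70 ± 0.26) and none was lowered 2-fold, though 6 passed the adjusted p alone as lower (6.65% of all genes did), among them the argininosuccinate synthase gene Ass1 (-0.58 ± 0.09). The calls for Oat and Aldh1b1 were lost with the H rats alone and with the F rats alone, and that for Aldh1a1 with the F rats alone.

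Lipid genes held some of the called falls. Of 43 tested genes of cholesterol and fatty acid synthesis, 6 were lowered (14.0%, against 0.62% of all genes) and none was raised, with a median of -0.36: the ketone-using ligase Aacs (-1.39 ± 0.26), the lipid droplet gene Pnpla3 (-1.34 ± 0.28), the desaturase Fads2 (-1.12 ± 0.26), the carboxylase Acacb (-1.09), and Fads1 and Elovl5. Of these, Pnpla3, Fads2 and Acacb lost their calls without several single rats, F10 and H07 among them for each, and Aacs lost its call with the H rats alone and with the F rats alone. This count fell to 2 without F10, to 1 without H07, to 2 with upper-quartile scaling or library totals alone, and to none in the H rats. Of 48 tested genes of fatty acid oxidation and PPAR alpha, only Cpt1a (2.08%), the carnitine transferase that admits fatty acids to mitochondria, was lowered (-1.19 ± 0.24), although the median was -0.49. The call for Cpt1a was lost without F09 or H07, in the H rats and with library totals alone, while the F rats alone gave 14 lowered members, and without H17 there were 4. Bile acid genes gave Abcb1b as the single raised member and the organic anion carrier gene Slco1a1 (-1.04 ± 0.12) as the single lowered member of 29. The share was 3.45% each way, against 7.29% raised and 0.62% lowered of all genes. At the adjusted p alone, 11 of the 29 were lower, where 6.65% of all genes were. The call for Slco1a1 was lost without F09, H05, H07 or H18, with upper-quartile scaling and with library totals alone.

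No member was called among 34 acute-phase genes (median -0.23), 34 complement and coagulation genes (median -0.26), 41 hepatocyte transcription factors (median -0.22) or 15 clock genes (median -0.15). At the adjusted p alone with no minimum fold, 4, 7, 3 and 0 of them were lower and 1, 2, 1 and 0 higher. Over all genes, 7.29% were called raised and 0.62% lowered, and at the adjusted p alone 12.5% were higher and 6.65% lower. The 0 called as lowered is therefore near the share of all genes, and the 0 called as raised is below it. With the F rats alone or without H17, 3 of the transcription factors were lowered. For example, the C-reactive protein gene Crp (-0.65 ± 0.14) and the transcription factor gene Hnf4a (-0.51 ± 0.12) were lower in every DEN rat. Of 51 amino acid breakdown enzymes, 2 were raised (3.92%, below the 7.29% of all genes), Phgdh (2.07) and Psat1 (1.26), both of which act in making serine, and 12 were lower at the adjusted p alone. The count of raised members fell to 1 without F09, F10, H05, H06, H08 or H18, and to 0 with the H rats alone.

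Genes of the extracellular matrix were raised in part, fibrillar collagens and the enzymes that process them among them. Of 21 collagen and crosslinking genes, 9 were raised (42.9%, against 7.29% of all genes) and none was lowered, with a median of 0.96, and with the H rats alone 4 were raised. Col3a1, collagen III, was at 109, 114, 131 and 144 CPM without DEN and 229, 258, 309.6 and 309.7 CPM with DEN (1.15 ± 0.12, edgeR adjusted p = 9.3e-05), a call lost with the H rats alone. Col1a1, collagen I, was at 7.89 to 10.4 CPM without DEN and 10.7 to 26.1 CPM with it. The groups did not overlap, but the lowest DEN rat was close to the highest control, and the call for Col1a1 (1.13 ± 0.25) was lost without F09, F10, H05, H06, H07 or H08, and with the H rats alone. The collagen processing gene Pcolce (1.60 ± 0.17) and the collagen chaperone gene Serpinh1 (1.22 ± 0.11) were raised in every DEN rat. Of 31 laminins, matrix glycoproteins and proteoglycans, 10 were raised (32.3%), led by Lum (2.07 ± 0.42) and Vcan (1.92), and the H rats alone gave 5. The call for Lum was lost without F09, H05, H07 or H08. Fn1, fibronectin, which hepatocytes secrete into plasma, was lower by 0.64 on the log2 scale in every DEN rat, without being called.

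Metalloproteinases and their inhibitors gave 6 raised genes of 20 (30.0%, against 7.29% of all genes). Mmp12, the macrophage elastase, was at 0.343, 0.411, 0.566 and 0.614 CPM without DEN and 2.57, 4.63, 4.91 and 5.93 CPM with DEN (3.21 ± 0.30). Mmp2, which digests collagen IV, was at 5.49, 6.09, 6.15 and 6.67 CPM without DEN and 16.5, 19, 20.2 and 21 CPM with DEN (1.65 ± 0.10, edgeR adjusted p = 4.7e-06). Neither gene had a DEN rat near the controls. The inhibitor gene Timp1 (1.40 ± 0.14) was raised with them. Stellate cell and myofibroblast genes, which mark the cells that make scar, gave 7 raised of 32 (21.9%, median 0.70), with a summed level of 467 to 495 CPM with DEN and 356 to 415 CPM without. Des, desmin, rose by 1.33 ± 0.18 and Tagln, transgelin, by 1.11 ± 0.17, the latter with its call lost without F10 or H08. Acta2, the smooth muscle actin of activated stellate cells, overlapped between the groups (0.86 ± 0.22, edgeR adjusted p = 0.014). Pdgfrb, a growth factor receptor gene of the same list, went the other way and was not called (-0.39, edgeR adjusted p = 0.028). Members of the list ranged from -0.80 to 2.32.

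Annexins, S100 proteins, galectins and cytoskeletal genes, many of which are higher in non-parenchymal and dividing cells, gave 15 raised of 49 tested (30.6%, against 7.29% of all genes) and a median of 0.54. The tubulin gene Tubb6 was at 1.53, 1.84, 1.98 and 4.19 CPM without DEN and 16.7, 22.4, 22.5 and 26.3 CPM with DEN (3.20 ± 0.28). The actin-binding gene Tmsb10 was at 20.2 to 34.8 CPM against 69.2 to 103 CPM (1.77 ± 0.17), Lgals1, galectin 1, rose by 1.98 ± 0.18, and Anxa2, annexin A2, by 1.57 ± 0.15. In cell junctions, the cadherin gene Cdh13 was raised by 4.07 ± 0.38 and Cdh17 lowered, with 5 raised (20.0%, against 7.29% of all genes) and 1 lowered of 25. Without H07, 2 of these 25 were raised, and without H08 or H18 or with the H rats alone, 3 were, which is near the share of all genes. Fabp4, a fatty acid binding protein of fat cells, capillaries and macrophages, was at 0.336 to 0.867 CPM without DEN and 4.01 to 4.97 CPM with it (3.13 ± 0.25).

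Of 36 recruited macrophage and monocyte genes, 16 were raised (44.4%, against 7.29% of all genes) and 1 was lowered, with a median of 0.88, and the H rats alone gave 10 raised. Lyz2, lysozyme, was at 13.7, 15.6, 16.5 and 17.8 CPM without DEN and 41.1, 48, 51.5 and 52.9 CPM with DEN (1.61 ± 0.11, edgeR adjusted p = 6.2e-06). The lectin gene Clec7a (2.15) and the lysosomal glycoprotein gene Gpnmb (1.16 ± 0.18) were raised, and Cd14 was the lowered member (-1.25), a call that was lost without F10, H05, H06, H07, H17 or H18. Cd68, whose protein the study stained to analyse macrophages, was higher by 0.65 and was not called (edgeR adjusted p = 0.011). Of 18 Kupffer cell genes, 2 were raised (11.1%, near the share of all genes), the transcription factor gene Spic (1.54 ± 0.29) and Id3 (1.05 ± 0.14), and without F10 or H07, where Id3 lost its call, 1 was. Clec4f, which in rodents is made by Kupffer cells, was at 137, 157, 159 and 249.9 CPM without DEN and 159, 175, 178 and 179 CPM with DEN. It did not separate the groups (-0.03 ± 0.16, edgeR adjusted p = 0.92). The list of resident genes summed to 1319 to 1540 CPM with DEN and 933 to 1531 CPM without, and the recruited list, leaving out Apoe, which hepatocytes make too, to 880 to 923 CPM and 656 to 901 CPM.

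**Figure D4:**
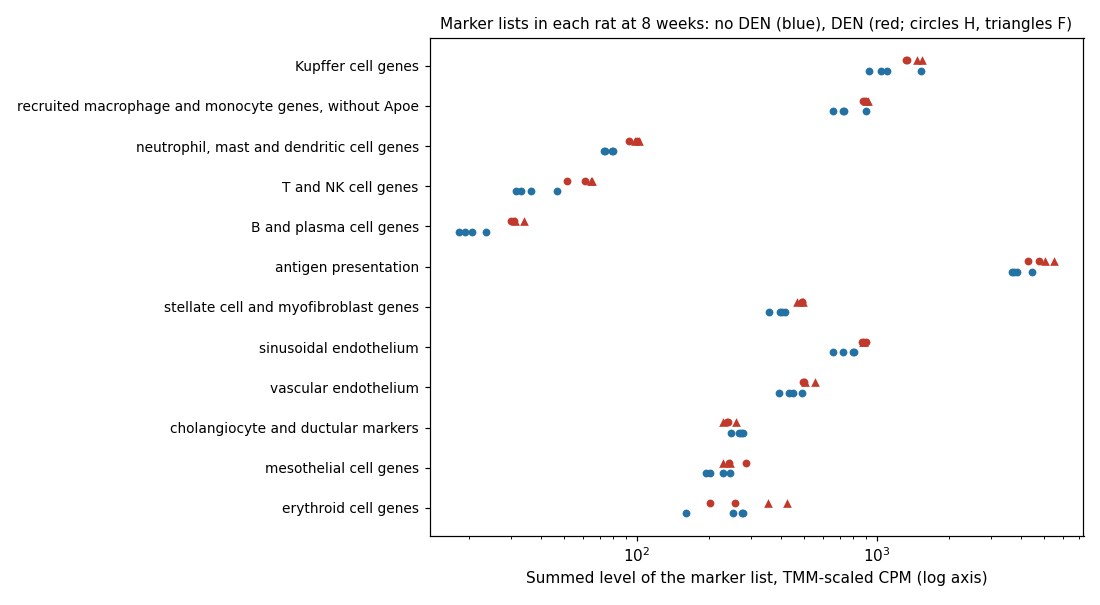
Summed level of the marker genes of each cell type (CPM after TMM scaling, log axis) in each of the 8 rats at 8 weeks, with no DEN rats in blue and DEN rats in red, circles for the letter H and triangles for the letter F. The sums of T and NK, B, neutrophil, stellate, sinusoidal and vascular markers are higher in every DEN rat than in every no DEN rat, while those of Kupffer cells, recruited macrophages, antigen presentation, cholangiocytes, mesothelium and red blood cells overlap.

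Neutrophil, mast and dendritic cell genes gave 8 raised of 16 tested (50.0%, against 7.29% of all genes), with a median of 1.16. S100a9, a calcium-binding protein of neutrophils, was at 0.46, 0.724, 1.46 and 1.66 CPM without DEN and 4.51, 4.91, 6.96 and 9.59 CPM with DEN (2.59 ± 0.38, edgeR adjusted p = 0.00079). Its partner S100a8 (2.57 ± 0.37) and the mast cell protease gene Mcpt2 (2.41 ± 0.37) were raised too, and no DEN rat overlapped a control in these genes. The mast cell genes Cpa3 (1.53) and Kit (0.68) were not called. Hdc (-0.59) and Cd1d1 (-0.17), the tested members below 0, were not called either. Flt3, Xcr1, Clec9a and Clec10a, from the dendritic cell part of the list, were raised by 1.10 to 1.48. Of 30 members found, only the 16 above had enough counts to be tested. T and NK cell genes gave 8 raised of 30 (26.7%), led by the protease gene Ctsw (1.93), and 5 without F10, H06 or H18 and 4 in the H rats. The T cell receptor complex gene Cd3e (1.01, edgeR adjusted p = 0.046) and the cytotoxic genes Gzmb (0.61), Prf1 (0.13) and Gzma (-0.09) were not called. Cd8b, Foxp3 and Pdcd1 had too few counts to be tested. B and plasma cell genes gave 6 raised of 15 (40.0%), but 1 without H07, 2 without H05 or H06, 3 without F09 or H08, and 1 in the H rats. The summed levels were 51.3 to 65.2 CPM with DEN and 31.5 to 46.5 CPM without for T and NK cells, and 30.0 to 33.8 CPM and 18.2 to 23.5 CPM for B and plasma cells. The endothelial lists gave no raised gene of 16 for sinusoids and 4 of 24 (16.7%) for larger vessels, such as the selectin gene Selp (1.89, a call lost without F10, H05, H07, H08 or H18), with sums of 870 to 899.8 CPM against 659 to 801 CPM and of 495 to 551 CPM against 394 to 490.5 CPM. Without H08, 2 of the 16 sinusoidal genes were raised. The part of these marker sums in the changes of the matrix, cytoskeletal and antigen presentation genes was not tested.

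Of 22 antigen presentation genes tested, 8 were raised (36.4%, against 7.29% of all genes), and the H rats alone gave 3. The summed level of the list overlapped between the groups, at 4289 to 5470 CPM with DEN and 3662 to 4427 CPM without. Cd74, the invariant chain of class II, was at 116, 130.3, 149.6 and 211 CPM without DEN and 279, 447, 456 and 504 CPM with DEN (1.47 ± 0.22, edgeR adjusted p = 0.001). The lowest DEN value was that of H17, and the call was lost with the H rats alone. RT1-Ba (1.64 ± 0.20), RT1-Db1 (1.66), RT1-Bb (1.65) and RT1-Da (1.52) are class II chains of the rat and were all raised, with the reservation that alleles and copies of RT1 genes share reads. Interferon-stimulated genes gave 8 raised of 40 (20.0%) and a median of 0.10. Isg15 was at 7.58 to 11.4 CPM without DEN and 17.1 to 22.4 CPM with DEN (1.09 ± 0.15), a call lost without H06 and in the F rats alone. Without H06 or H17, 5 members were raised, and in the F rats 3.

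Of 23 chemokines and receptors, 7 were raised (30.4%, against 7.29% of all genes) and 1 was lowered, with a median of 0.96, and 4 were raised without F10 or H06 and 3 in the H rats. The B cell chemokine gene Cxcl13 rose by 2.61 ± 0.35 and Ccl21, which guides T cells and dendritic cells, by 1.80 ± 0.28. The lowered gene was Cxcl12, at 328, 335, 384 and 451 CPM without DEN and 168, 174, 186 and 187 CPM with DEN (-1.07 ± 0.11, edgeR adjusted p = 6.5e-05). Its groups were far apart, but the change was near 2-fold, and the call was lost without H07 (-0.969), with upper-quartile scaling and with library totals alone. In the TNF family, 6 of 27 were raised (22.2%), among them Tnfrsf9 (1.59 ± 0.26), a costimulatory receptor found on T cells, and Edar was lowered (-1.48), a call lost without F09, H06 or H07. The H rats alone gave 3 raised.

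Stress and signalling lists held few called members. Of 39 ER stress and ATF4 targets, 5 were raised (12.8%, against 7.29% of all genes), among them Atf3 (1.52 ± 0.21), with a median of 0.03, and 2 to 4 were raised when single rats were left out, around the share of all genes. Immediate early genes gave 4 of 31 (12.9%), and 7 without H08, the control rat in which Fos (5.46 CPM) was far above the other controls (0.0762 to 0.411 CPM). Fos differed by -0.75 ± 0.99 with all rats and was not called. Without H08 its direction turned and it was called raised (2.09, edgeR adjusted p = 0.0058). Of 40 growth factor genes and receptors, 6 were raised (15.0%), led by Mst1r, the receptor of macrophage stimulating protein (1.81), a call lost without each rat but H08. Of 27 iron genes, the ferroxidase gene Heph (2.40 ± 0.22) and Id1, a target of the iron-sensing BMP pathway (1.83 ± 0.19), were raised, a share of 7.41% that is near the 7.29% of all genes. Of 24 DNA methylation and chromatin genes, 3 were raised (12.5%), of which Uhrf1 (2.31) works with the replication fork, and of 40 glycolytic and gluconeogenic isozymes, Hk1 (1.06) and Pfkp (1.01) were raised (5.0%), with calls lost without H06 and without H07, H08 or H17.

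The 8-week changes were then set beside those in NT liver of rats given 14 weekly injections and of rats given 14 injections and 6 weeks without DEN (collected at week 20), each against its own same-age no DEN rats, in a fit of 24 libraries and 11323 genes. In that fit, 846 genes (7.47%) were raised and 88 (0.777%) lowered at 8 weeks, 1494 (13.2%) and 281 (2.48%) at 14 weeks, and 755 (6.67%) and 80 (0.707%) at 20 weeks. The DEN effect at 14 weeks was above that at 8 weeks for 402 genes (3.55%) and below for 595 (5.25%) at an adjusted p of at most 0.05 (edgeR interaction term). At 20 weeks it was above for 21 (0.185%) and below for 60 (0.53%). Single rats moved these totals. The 997 genes of the first contrast became 1662 without H17, 581 without F09, 606 without F10 and 622 without H07. They became 1584, 439 and 564 without rat 1, 2 or 3 of the 14-week DEN group, and 626 without no DEN rat 2 of that week. The 81 genes of the second contrast became 48 without H18, 49 and 123 without DEN rats 3 or 4 of week 20, and 42 without no DEN rat 1 of that week. With DESeq2 and all rats, the first contrast gave 1341 genes and the second 234. Of the 788 genes raised at 8 weeks, 621 (78.8%) were also called raised at 14 weeks and 344 (43.7%) at 20 weeks, and of the 67 lowered genes 53 (79.1%) and 31 (46.3%). None was called in the opposite direction. These genes were chosen by their 8-week values, so that the shares describe them and test nothing. The length of treatment and the weeks since the last injection both differ at week 20.

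Cdkn1a and Mgmt had their largest DEN effects at 8 weeks. The effect on Cdkn1a was 2.79 at 8 weeks, 1.90 at 14 weeks and 0.28 at 20 weeks, with a difference of -0.89 (edgeR adjusted p = 0.039) between 14 and 8 weeks and of -2.51 (edgeR adjusted p = 1.1e-05) between 20 and 8 weeks. That on Mgmt was 1.85, 0.96 and -0.00, again smaller at both later times (edgeR adjusted p = 0.0027 and 1.4e-07). Abcb1b kept its large effect at 14 weeks (5.41) and lost most of it at 20 weeks (1.56, difference -4.63, edgeR adjusted p = 1.3e-05), and Pln and Mybl2 were near 0 at 20 weeks, at -0.46 and 0.03. The no DEN level moved too: Abcb1b had a mean of 1.96 CPM without DEN at 8 weeks and 11.3 CPM at 20 weeks, against 145 and 33.1 CPM with DEN, and Mybl2 had 0.471 and 1.26 CPM without DEN, against 8.65 and 1.26 CPM with DEN. Mdm2, Ccng1, Bax and Phlda3 also had smaller effects at 20 than at 8 weeks. The mitotic genes Cdk1 (2.73, 2.75 and 1.13) and Mki67 (2.30, 2.88 and 1.21) had lower values at 20 weeks, but the differences did not pass (edgeR adjusted p = 0.11 and 0.26 at 20 weeks). Of the 67 listed mitosis genes, 61 were called raised at 14 weeks, against 13.2% of all genes. At 20 weeks 20 of the 67 were, against 6.67% of all genes, so that their share stayed above that of all genes.

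Several markers of altered foci had larger effects later. The DEN effect on Gstp1 was 3.63 at 8 weeks, 7.24 at 14 weeks and 6.69 at 20 weeks, and larger than at 8 weeks at both times (differences 3.60 and 3.06, edgeR adjusted p = 0.0047 and 0.027). Ggt1 had 1.36, 5.30 and 4.46, with a difference of 3.94 at 14 weeks (edgeR adjusted p = 0.0056), and Abcc3, Akr1b8, Gpx2, Nqo1 and Akr7a3 had larger effects at 14 weeks as well. The duct and progenitor gene Krt19, not called at 8 weeks, had an effect of 3.70 at 14 weeks (difference 2.84, edgeR adjusted p = 0.0071). NT tissue at these times was dissected apart from nodules, and how many altered foci it still held was not measured here. Among the lowered genes, Aox3 fell further at 14 weeks (-7.27, difference -2.97, edgeR adjusted p = 0.00088) and was less low at 20 weeks (-2.12, difference 2.18, edgeR adjusted p = 0.00087). Cyp2c11 and Obp3 were lower at 14 than at 8 weeks too, with differences of -1.47 and -2.07. Cyp2e1 went from 0.41 at 8 weeks to -0.36 and -0.46 (edgeR adjusted p = 0.023 and 0.047 for the differences). The effects on Cd74 (1.46, 1.47 and 1.53) and Col3a1 (1.13, 1.14 and 0.49) did not pass the test between 8 weeks and either later time.

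**Figure D5:**
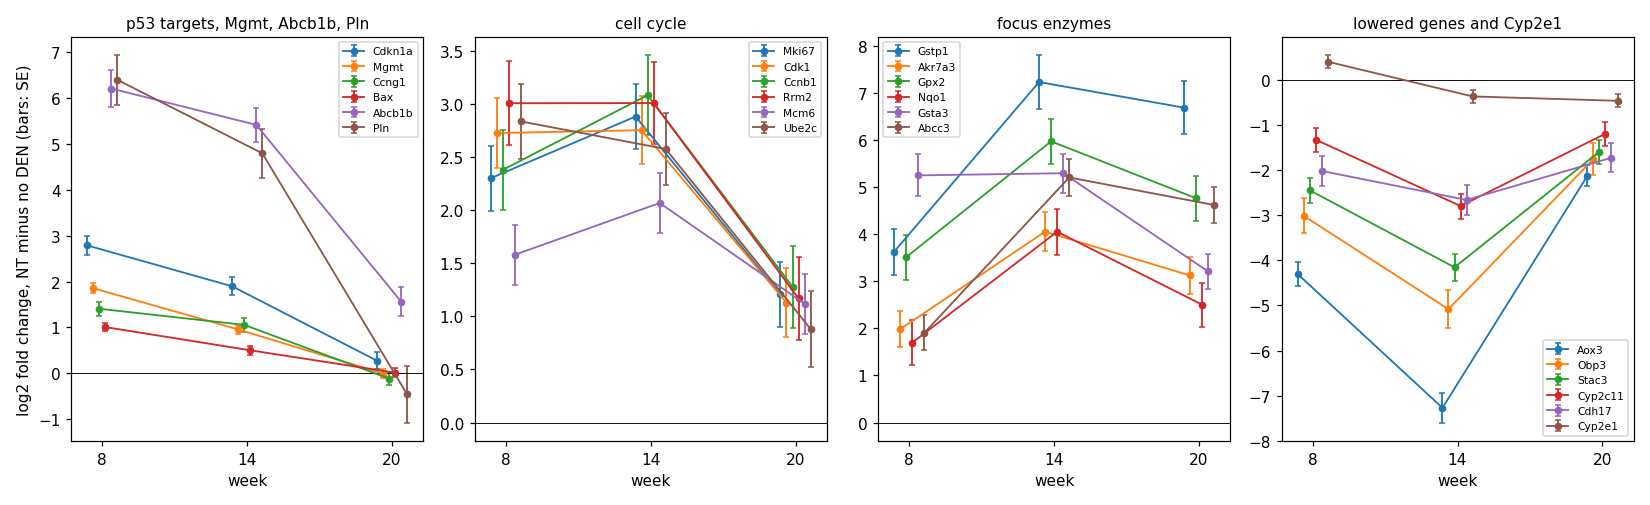
DEN effect on NT liver against same-age no DEN rats (log2 fold change, vertical axis, bars are SE) at 8, 14 and 20 weeks for genes named in the text, from the fit of 24 libraries. Cdkn1a falls from 2.79 to 0.28 and Mgmt from 1.85 to -0.00, while Gstp1 rises from 3.63 to 6.69.

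Within the DEN group, the F and H rats differed at 37 of 11100 genes in a fit with both kinds and the controls (13 genes, 0.117%, higher and 24 genes, 0.216%, lower in F, edgeR adjusted p of at most 0.05), and 2348 (21.2%) had an unadjusted p under 0.05. Of the genes described here, Lama5 (-0.69), A1bg (-1.91), Il17rd (-1.97), an inhibitor of fibroblast growth factor signalling, and the fatty acid hydroxylase gene Cyp4a1 (-1.65) were lower in the F rats, and Ccl21 (0.99) was higher. Cyp4a1 had 84.5 and 91.5 CPM in the F rats and 240.1 and 311 CPM in the H rats, with 221 to 397 CPM in the controls, and its overall difference from the controls was not called. In all, 5 fatty acid oxidation genes passed this test. The count of 37 also depended on the processing, with 63 genes without a filter and 581 with DESeq2. With 2 rats on each side, this contrast changed with every library: leaving out F09, F10, H06 or H08 left no gene at this threshold, leaving out H17 left 6, and leaving out H05, H18 or H07 gave 68, 128 and 211. Among the 207 called genes that the text could name, 59 lost their call with the H rats alone and 23 with the F rats alone, and the cause was not tested. Beside those given above, the calls for Ptprv, Gpc3, Cldn4, Lum, Vcan, Tagln, Gpnmb, Id3, RT1-Da, RT1-Db1, Tnfrsf9, Edar, LOC259244, Slco1a1, Acacb, Fads2, Pnpla3, Selp, Mst1r and Ugt1a7c were lost with the H rats alone, and those for Ugt1a6, Slc7a11, Pfkp, Pnpla3, Selp, Mst1r and Ugt1a7c with the F rats alone. In the fit of 24 libraries, A1bg, Lppr1, Lum, Pfkp, Pnpla3, Slc7a11 and Ugt1a7c were not called.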

How the data were processed

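RNA-seq of liver was analysed in 8 libraries, 4 rats per group at week 8, and in 24 NT and no DEN libraries for the comparisons with weeks 14 and 20. The deposited values are whole counts of read pairs per gene, with no normalization. The authors prepared the libraries with a stranded mRNA kit, aligned reads to the rn6 build with STAR 2.7.1a and counted uniquely aligned pairs in exons with HTSeq on the reverse strand, discarding pairs that fit several genes, and tested them with DESeq2 1.22.2. Close gene copies therefore lose reads. Summary lines that name no gene were removed: pairs outside any gene made up 21.5 to 24.9% per library.

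Genes were filtered with filterByExpr, scaled by TMM and tested with edgeR 4.0.16 (robust quasi-likelihood fit, group as the only term) in R 4.3.3. A call needed a fold of at least 2 and a Benjamini-Hochberg adjusted p of at most 0.01. Differences of effects between times, and between F and H rats, used contrasts of the same model at an adjusted p of at most 0.05. A total of 48 gene lists were described by their tested members. Named genes were the 12 raised and 12 lowered with the largest called changes (mean of at least 1 CPM in the higher group, no overlap, no uncharacterised symbols), the key genes and the 4 largest called members of each list, and the 6 largest differences each way between times among called genes. Genes outside this rule (LOC298116, Sult2a1, Nkd1, Cd14, Fads1, Elovl5, Cpa3, Kit, Hdc, Cd1d1, Flt3, Xcr1, Clec9a, Clec10a) were named after their values were seen. The members and lists were chosen with earlier results of these data known. Depth was 27747019 to 37166768 counted pairs per library, and a bound was given where controls had at most 3 counts.

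Alternatives were RLE scaling, no filter, a filter of 1 CPM in 4 libraries, DESeq2 1.42.0, the 24-library fit, a fit without robust estimation, the H or F rats of the DEN group alone, no minimum fold and each rat left out. Upper-quartile scaling and library totals alone were added after seeing the data. The pipeline was tested on simulated data. Promoters came from RefSeq (GRCr8), matched by symbol for 8814 of 10812 genes. Figures were drawn with matplotlib 3.10.9. Nodule libraries were not used here. Some genes that the naming rule selects are not reported here.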

Additional observations from a re-analysis of the deposited data

Results flagged for a closer look

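In 138 groups of 4 rats, 7 held a rat that stood apart from the other 3 by Dixon's test at the 95% level, close to the 5% that chance gives. In the DEN group, these were the highest rats for Mki67 (30.0 CPM) and Gstp1 (277.9 CPM, rat H18). Among the no DEN rats, they were the highest rats for Gsta3 (2.704 CPM), Mgmt (30.84 CPM), Lgals1 (1.682 CPM), Tubb6 (4.193 CPM) and Glul (359.9 CPM). None of these 7 rats closed the gap between the groups for a gene called raised.

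The DEN effect differed between weeks for many of the genes described (24-library edgeR fit, adjusted p of at most 0.05, values as the later log2 effect minus that at 8 weeks). It was smaller or more negative at 14 weeks for Cdkn1a (-0.8885), Mgmt (-0.8963), Bax (-0.5046), Phlda3 (-0.5572), Isg15 (-0.91), Afp (-0.6313), Cyp2e1 (-0.7709) and Tnxa-ps1 (-2.161). The lowered genes Aox3 (-2.972), Obp3 (-2.073), Stac3 (-1.711), Cyp2c11 (-1.473), Gimd1 (-3.101), LOC259244 (-2.206) and LOC100360095 (-2.413) were lower still at 14 weeks. Effects were larger at 14 weeks for the enzyme genes Gstp1 (3.605), Ggt1 (3.941), Akr7a3 (2.071), Nqo1 (2.356), Gpx2 (2.461) and Akr1b8 (4.274), the pump gene Abcc3 (3.303), the duct keratin gene Krt19 (2.842), the collagen receptor gene Ddr1 (3.434) and Ccdc92 (4.323).

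At 20 weeks the effect was smaller than at 8 weeks for the p53 targets Cdkn1a (-2.508), Mdm2 (-1.02), Ccng1 (-1.517), Bax (-0.992) and Phlda3 (-1.796), for Mgmt (-1.856), and for Abcb1b (-4.634), Pln (-6.844), Mybl2 (-4.145), Cdkn1c (-1.65), Mmp2 (-0.9416), Cyp2e1 (-0.8675), Il17rd (-3.397), Nrcam (-2.752) and RGD1561849 (-3.19). The value for Pln is a fitted one that depends on the prior count and is no bound, since its no DEN rats at 8 weeks had at most 3 counts each. It was larger for Gstp1 (3.062), Abcc3 (2.718) and Maff (2.212), and less negative for Aox3 (2.175), Ptger3 (1.036) and Gfra1 (1.218). The F rats of the 8-week DEN group differed from the H rats for Lama5 (-0.6909), A1bg (-1.912), Cyp4a1 (-1.646), Il17rd (-1.971) and Ccl21 (0.9933), as F minus H on the log2 scale.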

How the results depend on the processing

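Over the alternatives tried, the calls at 8 weeks (855, of which 788 raised and 67 lowered) stayed within 1.5 times the reported counts with RLE scaling, no filter, the filter of 1 CPM, DESeq2, the 24-library fit and a fit without robust estimation. The lowered count moved to 181 with the F rats of the DEN group alone and to 41 with library totals alone, and the counts became 2071 called, 1352 raised and 719 lowered with no minimum fold. Leaving out 1 rat gave 661 to 1004 calls, 614 to 875 raised and 47 to 129 lowered genes, the lowest without H07 and the highest without H17. The 8 against 14 week differences (997) ranged from 439 to 1662, and the 8 against 20 week differences (81) from 42 to 123 (234 with DESeq2). The F against H differences (37) ranged from 0 to 211, with 6 without H17, 68 without H05 and 128 without H18, and were 63 without a filter and 581 with DESeq2. In those leave-outs the lone rat of a letter is assumed to vary like the other groups. The cause of these shifts was not tested.

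Of the 207 called genes that could be named, 165 kept their call without each single rat. Under the other settings, leaving aside the letter subsets, 182 did not lose it in any fit that tested them. With the filter of 1 CPM, 175 were tested and kept their call and 1 lost it, and those left untested count among the kept. With no minimum fold, all 207 keep their call by construction. Fos (-0.75) ranged from -1.145 without H06 to 2.091 without H08 (edgeR adjusted p = 0.0058). No paired analysis was possible because the groups are different rats that share no animal, litter or day in the labels. Depth limited genes near 3 counts per library, such as Plcd4, Pln and Ddit4l2, for which bounds stand in place of folds.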
